A study of Mus musculus with 5 samples.

Results

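A set of 8 genes that mark Schwann cells and other glia were followed through the transcriptome of mouse eye tumors and of normal uvea: Prx, Mbp, Pmp22, Ngfr, Cdh19, Gap43, Foxd3 and Gfap. They were picked by gene symbol, and all 8 matched a single locus of their own among the 24768 loci of the deposited tables (23141 of them named). RNA came from uvea of adult wild-type animals, the pigmented vascular coat that holds iris, ciliary body and choroid (2 libraries), and from tumors in the eyes of adult animals, AAV5-Cre;Lats1/2 fl/fl in the labels (3 libraries). Both Lats1 and Lats2 were floxed in these, and Cre recombinase came by a serotype 5 adeno-associated virus. The labels give the wild-type mice neither floxed alleles nor virus, so genotype, virus and tumor growth cannot be told apart. The sources used here do not give the promoter that drives Cre or the number of animals behind a library, and the p-values given here thus reflect only how far these samples lie apart, which may be technical.

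Schwann cells are the glia of peripheral nerves and arise from the neural crest, as melanocytes do. Those that wrap large axons switch on myelin proteins, whereas precursor, non-myelinating and injury-activated Schwann cells carry another set of genes, and a cell moves from one state to the other when it loses or regains contact with an axon. The uvea is crossed by ciliary nerves, some of which are myelinated, and lies next to the retina with its own glia. Prx, Mbp and Pmp22 stand here for the myelinating state, and Ngfr, Cdh19, Gap43, Foxd3 and Gfap for the immature state.

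The libraries held 12687703 to 14368272 estimated fragments. Levels are given in FPKM, fragments adjusted for transcript length and library depth. Lats1 read 7.55 and 8.86 FPKM in the wild-type libraries, tumors 1, 2 and 3 read 3.43, 3.90 and 2.94 FPKM, and it fell by 1.21 on the log2 scale (SE 0.18, adjusted p = 0.0115 by edgeR). Lats2 read 20 and 20.2 FPKM against 12.6, 17.0 and 14.3 FPKM, with an adjusted p of 0.0577 by edgeR. Chi-square per degree of freedom was 5.56 between the counts of the wild-type pair and 108 to 139 between those of tumor pairs, so no library repeated another.

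None of the 8 genes passed the test of tumor against wild type. With edgeR's quasi-likelihood test over 15241 loci and an adjusted p under 0.05 as the threshold, 0 of 8 rose and 0 of 8 fell, against 18.7% and 15.4% of all tested loci (34.1% in either direction). At an unadjusted p under 0.05 the count was also 0. DESeq2 called 0 of 8, against 45.7% of all loci. In all 8 genes the range of the tumor libraries overlapped that of the wild-type libraries, whereas the groups did not overlap at 69.5% of tested loci. The median log2 fold change of the 8 genes was 0.78, and that of all tested loci 0.05.

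What most of the genes shared was where tumor libraries 2 and 3 lay against wild type. Tumor library 2 lay above both wild-type libraries in 8 of 8 genes (45.2% of tested loci), and tumor library 3 lay below both in 7 of 8 (48.8%). Both held at once for 7 of 8 genes and for 6.07% of all tested loci. Tumor library 3 was the lowest of the tumors in 7 of 8 genes (32.3% of tested loci), with Pmp22 as the exception. These counts describe genes that were proposed with earlier results of the same libraries known, and no test was made of them.

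**Figure D1:**
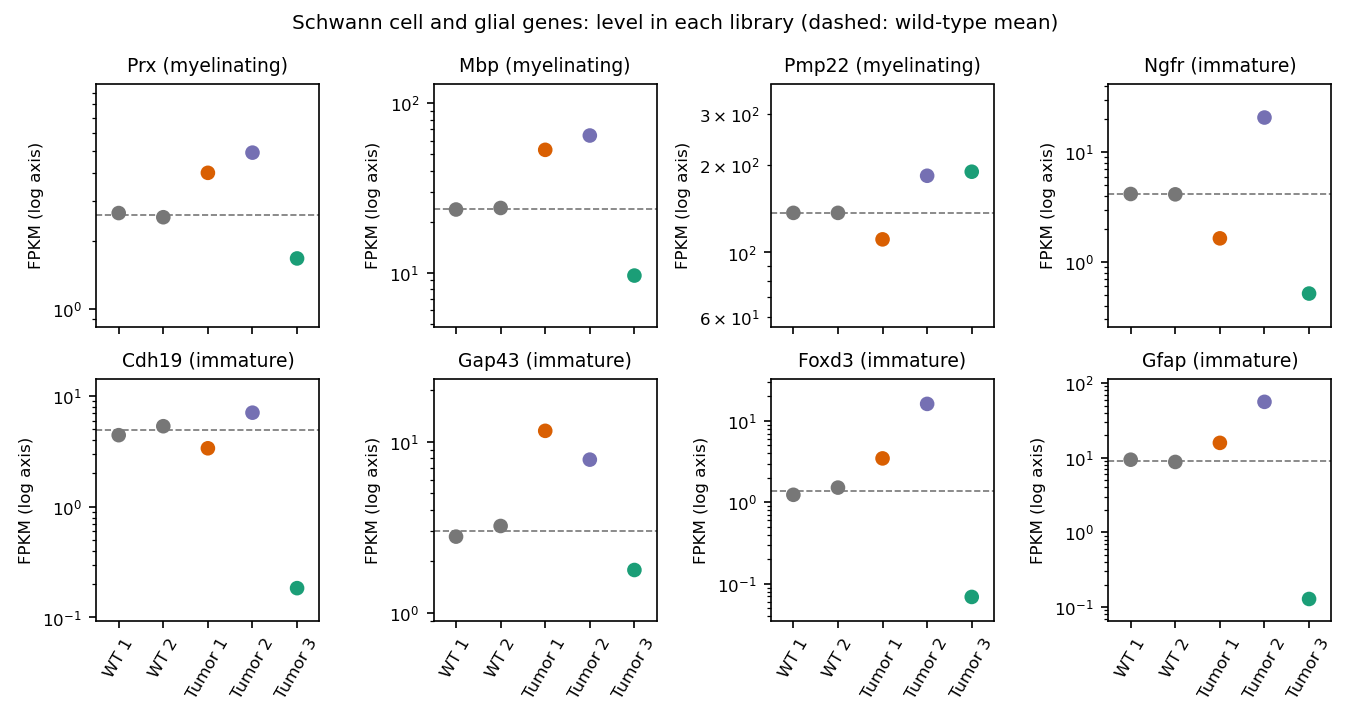
FPKM of each of the 8 genes (y axis, log scale, a separate range per panel) in the 2 wild-type and 3 tumor libraries (x axis). Each point is 1 library and the dashed line is the wild-type mean. Tumor library 3 is the lowest point in every panel other than that of Pmp22, and tumor library 2 lies above the line in all panels.

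The myelinating genes come first. Periaxin, the product of Prx, is a scaffold protein of myelinating Schwann cells that ties the myelin sheath to the basal lamina. The gene spans 27499324 to 27520041 of chromosome 7 in build mm10, on the plus strand, and an antisense gene, Gm15541, overlaps it. Prx read 2.65 and 2.54 FPKM in the wild-type pair, and tumors 1, 2 and 3 read 3.99, 4.90 and 1.67 FPKM. Tumors 1 and 2 were thus above the wild-type range and tumor 3 below it. The wild-type mean was 2.59 ± 0.0826 FPKM (SD, n = 2) and the tumor mean 3.52 ± 1.67 FPKM (SD, n = 3). Tumor over wild type came to 0.52 on the log2 scale (SE 0.50, adjusted p = 0.452 by edgeR).

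Mbp encodes myelin basic protein, which holds the cytoplasmic faces of the myelin membrane together, and lies on chromosome 18 from 82475123 to 82585637 (plus strand). Its level was 23.6 and 24.1 FPKM in wild type and 53.1, 64.5 and 9.62 FPKM in the tumors. Here too tumors 1 and 2 were high, at 2.23 and 2.71 times the wild-type mean, and tumor 3 was low. The group means were 23.8 ± 0.364 FPKM (SD, n = 2) and 42.4 ± 29.0 FPKM (SD, n = 3), and tumor over wild type came to 0.64 on the log2 scale (SE 0.55, adjusted p = 0.404 by edgeR).

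The size of the Mbp differences depended on the unit in every tumor library. By FPKM tumor library 3 was 2.48-fold below the wild-type mean, and by the authors' scaled fragments 1.64-fold below it. Tumor libraries 1 and 2 were at 2.23 and 2.71 times that mean by FPKM, and at 1.71 and 2.18 times by scaled fragments. The number of scaled fragments behind 1 FPKM, which grows with the mean length of the transcripts credited, was 1.51 times the wild-type mean in tumor library 3. In tumor libraries 1 and 2 it was 0.769 and 0.804 times the wild-type mean, and the wild-type libraries stood at 0.991 and 1.01. Among 9119 loci with at least 100 fragments in every library, 0.296% reached the Mbp value in tumor library 3. The ratio stayed between 1.00 and 1.03 for Prx and Pmp22 in all tumors. Mbp is known to have long transcripts from a start far upstream, called golli, that cells other than myelinating glia also make. The reference annotation (GENCODE M21) lists 14 coding transcripts of the gene, from 354 to 4797 bases, and which of them were credited was not tested.

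Pmp22 encodes a small membrane protein of compact myelin that fibroblasts and other cells also make, and lies on chromosome 11 from 63128908 to 63159559 (plus strand). It was at 137 FPKM in both wild-type libraries, against 111, 184 and 190 FPKM in tumor libraries 1, 2 and 3. Its order of libraries was its own, with tumor 1 below wild type and tumor 3 the highest. The log2 fold change was 0.30 (SE 0.29, adjusted p = 0.451 by edgeR). Of 6 fibroblast markers 2 rose (Col1a1 and Col3a1) and 0 fell, where 18.7% and 15.4% of all tested loci did. The summed level of these markers was 1558 and 1742 FPKM in wild type and 2426, 1739 and 3023 FPKM in the tumors, also highest in tumor 3. The list was not uniform: Col1a1 and Col3a1, at 1419 and 965 FPKM, made up most of the sum in tumor 3, whereas Dcn and Lum, at 448 and 25.5 FPKM, were lowest there. Their part in the Pmp22 values was not tested.

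In bulk tissue fewer cells of a type and less RNA per cell cannot be told apart, which holds for every level given here. Of 5 endothelial markers, a cell type known to make Prx as well, 1 fell (Vwf) and 0 rose, where 15.4% and 18.7% of all tested loci did. Their summed level was 94.7 and 100 FPKM in wild type and 98.9, 66.0 and 53.1 FPKM in the tumors, and their part in the Prx values was not tested.

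The upstream sequences of Prx and Pmp22 are shown because the tumors carry a deletion aimed at the kinases that restrain YAP and TAZ, which act on genes through TEAD proteins, and Foxd3 because its ratio of tumor to wild type was the highest among the genes that have a window. The 250 bases before each RefSeq start (GRCm38.p6) were searched on both strands for the TEAD letters GGAATG and for the SOX letters ACAANG, which do not overlap each other. Capitals mark the TEAD letters, here on the opposite strand. The windows are chr7:27499074-27499323, chr11:63128732-63128981 (the first of 4 Pmp22 starts) and chr4:99656049-99656298, all on the plus strand.
Prx: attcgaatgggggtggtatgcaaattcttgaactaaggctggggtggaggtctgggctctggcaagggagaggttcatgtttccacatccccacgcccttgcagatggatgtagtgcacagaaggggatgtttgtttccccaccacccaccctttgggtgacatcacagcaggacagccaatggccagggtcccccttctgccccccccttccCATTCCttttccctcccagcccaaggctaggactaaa
Pmp22: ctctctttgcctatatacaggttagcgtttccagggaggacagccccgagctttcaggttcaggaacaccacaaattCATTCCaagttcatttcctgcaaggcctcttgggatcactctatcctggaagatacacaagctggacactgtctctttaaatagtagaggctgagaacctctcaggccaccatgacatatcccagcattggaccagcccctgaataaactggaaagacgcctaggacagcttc
Foxd3: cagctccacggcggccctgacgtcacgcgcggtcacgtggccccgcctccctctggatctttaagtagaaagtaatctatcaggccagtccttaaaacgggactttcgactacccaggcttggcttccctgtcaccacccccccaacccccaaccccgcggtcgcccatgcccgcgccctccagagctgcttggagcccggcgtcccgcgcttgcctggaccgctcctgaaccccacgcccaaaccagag
Of the 8 genes, 5 had a window in the RefSeq table (Prx, Pmp22, Ngfr, Foxd3 and Gfap), 8 windows in all. The TEAD letters stood in 2 of the 8, those of Prx and Pmp22 printed here, beginning 37 and 173 bases before the start, and in 12.6% of all 32851 windows. The SOX letters stood in 0 of the 8 and in 36.3% of all windows. A match of letters is a description and shows no binding.

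The immature genes spread further. Ngfr encodes the low-affinity neurotrophin receptor p75, a marker of neural crest cells and of immature and injury-activated Schwann cells (chromosome 11 from 95568821 to 95587698, minus strand). It read 4.16 and 4.13 FPKM in the wild-type pair, and tumors 1, 2 and 3 read 1.64, 20.7 and 0.515 FPKM. Only tumor 2 was above wild type, at 5.0 times its mean, and the other tumors were below both wild-type libraries. The group means were 4.15 ± 0.0180 FPKM (SD, n = 2) and 7.63 ± 11.4 FPKM (SD, n = 3). The log2 fold change of 0.93 (SE 1.54, adjusted p = 0.663 by edgeR) turned to −1.90 without tumor library 2 (edgeR adjusted p = 0.0807).

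Cdh19 encodes a cadherin of Schwann cell precursors and lies on chromosome 1 from 110888190 to 110977373 (minus strand). Its level was 4.44 and 5.35 FPKM in wild type and 3.38, 7.09 and 0.184 FPKM in the tumors. Tumor 1 was a little below wild type, tumor 2 a little above it, and tumor 3 far below, with 7 fragments (95% Poisson interval 2.81 to 14.4, which covers counting error only). The log2 fold change was −0.44 (SE 1.27, adjusted p = 0.809 by edgeR), and 0.12 without tumor library 3 (edgeR adjusted p = 0.842).

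Gap43 encodes a membrane protein of growing axons that immature and non-myelinating Schwann cells also make (chromosome 16 from 42248561 to 42340651, minus strand). It read 2.79 and 3.22 FPKM in the wild-type pair, and tumors 1, 2 and 3 read 11.6, 7.87 and 1.78 FPKM. Unlike the other immature genes it was highest in tumor 1, at 3.86 times the wild-type mean. Its log2 fold change was 1.29 (SE 0.82, adjusted p = 0.267 by edgeR).

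Foxd3 encodes a transcription factor of the neural crest that is kept in Schwann cell precursors and represses the pigment cell fate (chromosome 4 from 99656299 to 99658671, plus strand, 1 exon). The locus held 1.24 and 1.52 FPKM in wild type and 3.47, 16.2 and 0.0691 FPKM in tumor libraries 1, 2 and 3. Tumor 2 was at 11.8 times the wild-type mean and tumor 1 at 2.52 times. With 2 fragments, tumor 3 was at 0.0504 times the wild-type level, with a counting interval of 0.00600 to 0.188 (95%, exact). The log2 fold change of 2.31 had an SE of 1.81 (edgeR adjusted p = 0.360). It was 0.41 without tumor library 2, and 0.87 or 0.54 with limma-trend on log2 FPKM with 1 or 0.1 added.

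Gfap encodes the intermediate filament of astrocytes, which non-myelinating Schwann cells and stressed retinal Muller glia also make (chromosome 11 from 102887336 to 102900807, minus strand). The long noncoding gene Gm26668 overlaps it on the other strand. Gfap read 9.40 and 8.77 FPKM in the wild-type pair, and tumors 1, 2 and 3 read 15.8, 56.0 and 0.128 FPKM. Tumor 2 stood at 6.16 times the wild-type mean, while tumor 3 held 4 fragments and was at 0.0133 times the wild-type level (95% exact counting interval 0.00360 to 0.0341). The means were 9.09 ± 0.445 FPKM (SD, n = 2) and 24.0 ± 28.8 FPKM (SD, n = 3), and the log2 fold change was 1.44 (SE 1.80, adjusted p = 0.560 by edgeR). Without tumor library 2 it was −0.16.

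The spread between tumors can be set beside that of all loci. The SD of log2 CPM (counts scaled to library depth, prior count 2) over the tumor libraries had a median of 2.74 for the 5 immature genes, 0.84 for the 3 myelinating genes and 0.34 for all tested loci. Gfap, at 4.35, had a wider spread than 99.9% of tested loci, and Foxd3, at 3.53, than 99.7%. Cdh19 (2.74) and Ngfr (2.67) were wider than 98.8% and 98.6% of loci, and Gap43 (1.39) than 89.6%. The myelinating genes Mbp (0.98), Prx (0.84) and Pmp22 (0.43) were wider than 83.0%, 79.6% and 59.6%. Between the wild-type libraries the median SD of the 8 genes was 0.060, against 0.088 over all tested loci.

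**Figure D2:**
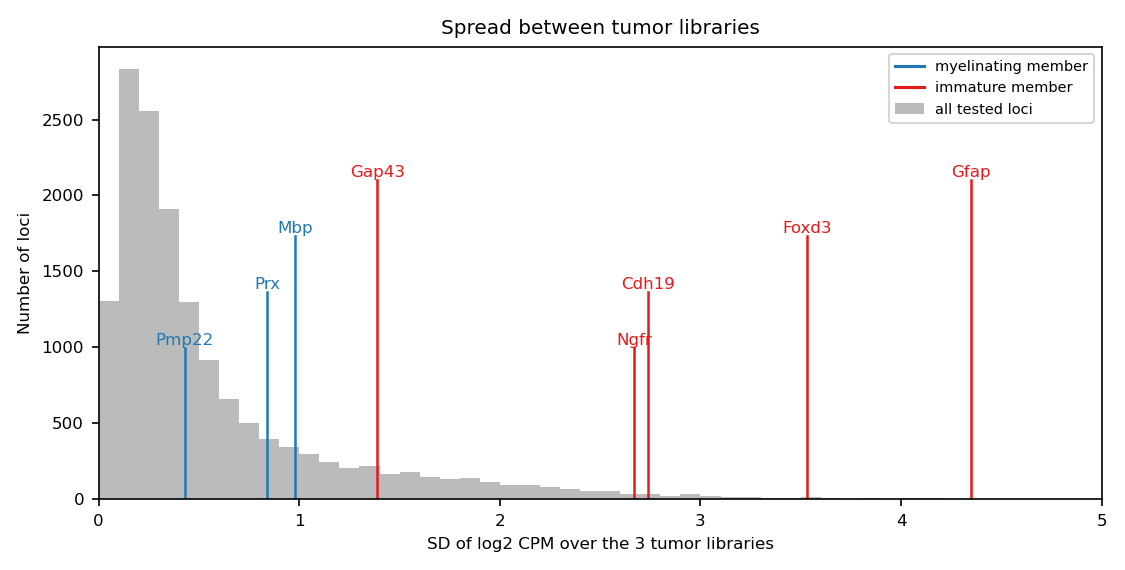
Number of tested loci (y axis) by the SD of log2 CPM over the 3 tumor libraries (x axis), in grey bars of width 0.1, with a vertical line for each of the 8 genes; line heights carry no value. The immature genes (red) lie between 1.39 and 4.35 and the myelinating genes (blue) between 0.43 and 0.98.

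The classes were then compared within each tumor library, as the mean log2 ratio of their genes to the wild-type mean, with 0.1 added to each FPKM. The 3 and 5 genes of a class are not replicates, so these values carry no test. In tumor library 1 the classes were level, at 0.48 for the myelinating and 0.43 for the immature genes, a difference of 0.05. The sign of so small a value is not stable: it was −0.05 on log2 CPM and −0.19 with medians. The level hides opposite genes, since Gap43 was at 1.92 and Ngfr at −1.28.

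Tumor library 2 had the immature genes further up on average. Their mean was 2.05 and that of the myelinating genes 0.92, a difference of −1.13 for myelinating minus immature, and all 3 and all 5 genes lay above wild type. Foxd3 led with 3.46, followed by Gfap with 2.61 and Ngfr with 2.29, while Mbp, the highest myelinating gene, was at 1.43. By FPKM the classes overlapped, since the immature genes Gap43, at 1.36, and Cdh19, at 0.53, lay below Mbp. By scaled fragments Mbp was at 2.18 times the wild-type mean. This is below the 2.62 times of Gap43 by FPKM and still above the 1.45 times of Cdh19.

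Tumor library 3 showed the opposite order. The immature genes averaged −3.22 and the myelinating genes −0.48, a difference of 2.74, which was 1.39 with 1 added to each FPKM instead of 0.1. No immature gene was above wild type, with Gap43 the nearest at −0.72 and Gfap the farthest at −5.33, and of the myelinating genes Pmp22 alone was above it, at 0.47. Prx was at −0.61 and Mbp at −1.30. By FPKM the classes thus overlapped, since Mbp lay below Gap43, but this order depended on the unit. By fragments Mbp was at 0.611 times the wild-type level (95% counting interval 0.553 to 0.673). Gap43 was at 0.594 times by fragments (0.367 to 0.931), so the 2 genes were not apart. Myelinating minus immature was 0.07 and −0.07 in the wild-type libraries. Both Pmp22 and Mbp are made by other cell types as well, and their part in the class means was not tested.

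**Figure D3:**
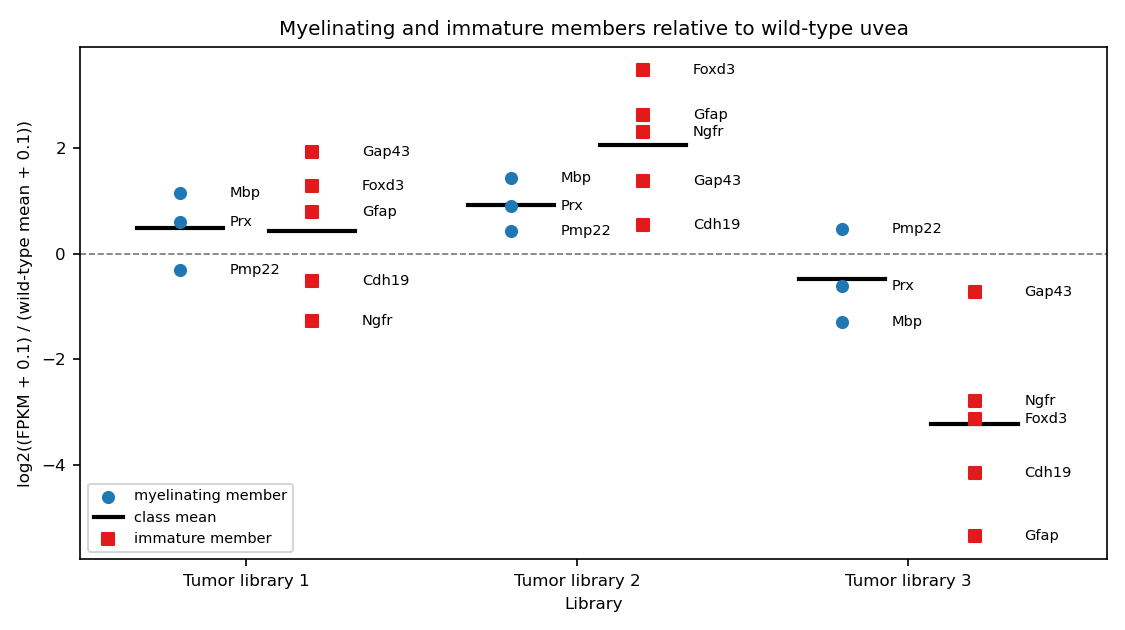
Log2 ratio of each gene to the wild-type mean, with 0.1 added to FPKM (y axis), in each tumor library (x axis); blue circles are myelinating genes, red squares immature genes and black bars class means. The immature mean is 2.05 in tumor library 2 and −3.22 in tumor library 3, and the classes are level in tumor library 1.

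The test was repeated with each library left out in turn. Fits without a wild-type library keep only 1 library in that group, so they cannot decide whether a gene passes. Among the fits without a tumor library, only that without tumor library 3 called any of the 8 genes. In that fit, without tumor library 3, 3 of the 8 genes passed the threshold upward, where 18.7% of all loci in that fit rose and 35.2% changed in either direction: Mbp by 1.00 (SE 0.18, adjusted p = 0.0226 by edgeR), Gap43 by 1.74 (SE 0.31, adjusted p = 0.0231 by edgeR) and Prx by 0.85 (SE 0.20, adjusted p = 0.0407 by edgeR). Foxd3 did not pass at 2.88 (edgeR adjusted p = 0.0668) nor did Gfap at 2.01 (edgeR adjusted p = 0.0856). Without tumor library 1 the count of genes called was 0 (29.7% of all loci), and without tumor library 2 it was 0 too (40.8% of all loci). The log2 fold changes of Prx, Mbp and Pmp22 were then 0.17, 0.25 and 0.15. The library whose absence gave the calls is the one that was low in 7 of the 8 genes, so they describe the other 4 libraries and are no independent evidence of a rise.

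A list of further myelin genes was read in the same libraries. Of 18 listed, 15 were tested, and 3 rose and 0 fell, where 18.7% and 15.4% of all tested loci did, so the share that rose was near that of all loci. The list had a median log2 fold change of 0.90 against 0.05 for all tested loci, but it was not uniform. The groups did not overlap in 8 of the 15 genes, against 69.5% of tested loci. Mag, Egr2, Cnp and Pmp2 lay above wild type in every tumor. Mal, Cldn19, Pllp and Nfasc lay below it in every tumor (log2 fold changes −2.43, −2.47, −2.16 and −0.98), without passing the threshold. Tumor 3 was below both wild-type libraries in 10 of the 15 genes and the lowest tumor in 12, against 48.8% and 32.3% of tested loci.

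The myelin genes that rose did not share one order. Pmp2, a fatty acid binding protein of peripheral myelin, went from 0.0643 and 0.0693 FPKM to 8.43, 26.2 and 0.647 FPKM, and rose (adjusted p = 0.0486 by edgeR). It had 2 fragments over both wild-type libraries and 575 over the tumors, a depth-scaled ratio of 179 with a counting interval of 49.3 to 1481 (95%, exact), which leaves out the spread between tumors. Mag, an adhesion protein between glia and axon, went from 1.34 and 1.29 to 6.76, 6.34 and 6.43 FPKM, a rise by 2.27 (SE 0.29, adjusted p = 0.0089 by edgeR). Egr2 encodes the transcription factor that drives peripheral myelination and is also induced in activated leukocytes. It went from 0.377 and 0.440 to 2.34, 2.78 and 6.50 FPKM and rose by 3.20 (SE 0.63, adjusted p = 0.0213 by edgeR). Mag was level across the tumors and Egr2 highest in tumor 3.

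Genes of the immature and repair state gave 3 rises and 2 falls among 17 tested of 18 listed, with a median log2 fold change of 1.08. These shares were no higher than the 18.7% and 15.4% of all tested loci. Bdnf, a neurotrophin, rose by 2.07 (edgeR adjusted p = 0.0317), the transcription factor gene Runx2 by 2.81 (edgeR adjusted p = 0.0131) and the locus shared by Zeb2 and a microRNA by 1.5 (edgeR adjusted p = 0.0106). The GDNF receptor gene Gfra1 fell by 3.08 (edgeR adjusted p = 0.0396) and Id2, an inhibitor of differentiation factors, fell by 1.34 (edgeR adjusted p = 0.0369). In none of these 5 genes was tumor 2 alone apart from the rest.

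Sox2, which holds Schwann cells in the immature state, was at 1.55 and 1.10 FPKM in the wild-type pair, against 1.15, 10.1 and 0.0333 FPKM in tumors 1, 2 and 3 (log2 fold change 1.54, SE 1.83, adjusted p = 0.539 by edgeR). It stood high in tumor 2 alone, as Ngfr did. Erbb3, the neuregulin receptor of the lineage, was at 2.84 and 3.43 FPKM and at 2.67, 6.57 and 0.991 FPKM (edgeR adjusted p = 0.906). Jun, which drives the repair state and is made in most cells, stayed between 30.7 and 53.1 FPKM in all libraries (edgeR adjusted p = 0.828). Tumor 2 was above both wild-type libraries in 14 of the 17 genes (45.2% of tested loci) and tumor 3 below both in 12 (48.8%).

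**Figure D4:**
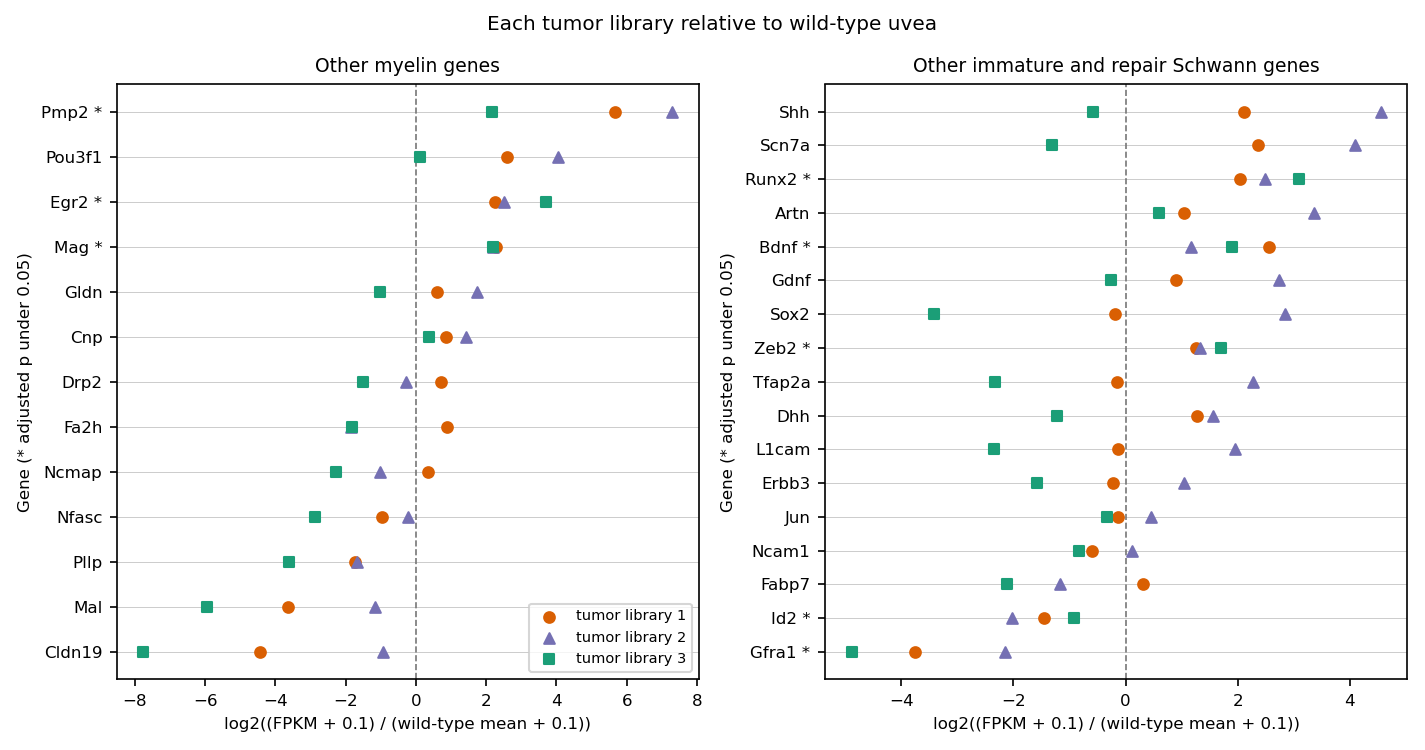
Log2 ratio to the wild-type mean, with 0.1 added to FPKM (x axis), of the tested genes of the other myelin list (left) and of the immature and repair list (right), by gene (y axis). Points are tumor libraries 1 (circle), 2 (triangle) and 3 (square), and a star marks an edgeR adjusted p under 0.05. Of the 15 tested genes of the left list 13 are drawn; tumor 3 is the lowest point in 10 of these and in 13 of 17 on the right.

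Further genes of the Schwann lineage were placed in neither class. Sox10, the transcription factor of Schwann cells and melanocytes, was at 84.3 and 79.3 FPKM in the wild-type pair, against 18.5, 49.1 and 1.73 FPKM in tumors 1, 2 and 3 (log2 fold change −1.77, SE 1.18, adjusted p = 0.288 by edgeR). S100b, a calcium-binding protein of glia and of pigment cells, went from 125 and 123 to 12.3, 8.52 and 0.772 FPKM and fell by 4.03 (SE 1.04, adjusted p = 0.0399 by edgeR). Itgb4, the laminin receptor subunit of Schwann cells and of epithelia, went from 6.23 and 4.64 to 47.4, 44.0 and 13.9 FPKM and rose by 2.54 (SE 0.51, adjusted p = 0.0224 by edgeR). Among the tumors Sox10 followed the order of Foxd3, Cdh19 and Gfap, although wild type was above them all. All 6 pigment cell genes of the melanocyte list fell (Dct, Tyr, Pmel, Mlana, Tyrp1 and Mitf), against 15.4% of all tested loci. Their summed level was 6391 to 6616 FPKM in wild type and 8.88 to 29.9 FPKM in tumors. These genes were not used to separate melanocytes from pigment epithelium. The part of pigment cells in the wild-type levels of Sox10, S100b, Foxd3 and Cdh19 was not tested.

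Markers of other cells that make these genes were read in the same libraries. Of 7 oligodendrocyte markers, the myelinating glia of the brain and optic nerve, 3 were tested. There was 1 rise (Mag) and 1 fall (Ermn, from 84.2 and 97.4 FPKM to at most 0.635), against 18.7% and 15.4% of all tested loci. The summed level of the list was 89.1 and 103 FPKM in wild type and 11.3, 8.60 and 6.69 FPKM in the tumors. Ermn made up most of it in wild type, and Mag, at 6.76, 6.34 and 6.43 FPKM, most of it in the tumors. Mog, Mobp, Opalin and Olig2, which define the cell type, had only 0 or 1 fragment each in either wild-type library. They had 0 fragments each in tumor library 2, where Mbp was highest, and a count of 0 allows up to 3 fragments. In tumor library 1 Mog and Mobp had 12 and 24 fragments (0.562 and 0.926 FPKM). Opalin and Olig2 had only 1 fragment each there (0.103 and 0.0315 FPKM).

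Of 8 astrocyte and Muller glia markers 4 fell (Glul, Aldh1l1, Rlbp1 and Dkk3), 1 rose (Kcnj10) and 3 did not pass. Of all tested loci 15.4% fell and 18.7% rose. The summed level of these markers, most of it Apoe, was 11691 and 10983 FPKM in wild type and 5963, 6482 and 10015 FPKM in the tumors. None was at 0. Tumor 2 was the highest tumor in 6 of the 8 markers (32.0% of tested loci). Rlbp1, a Muller glia and pigment epithelium gene, went from 1699 and 1756 FPKM in wild type to 0.980, 29.9 and 0.793 FPKM in the tumors. The astrocyte water channel gene Aqp4 went from 3.15 and 3.45 to 1.01, 4.81 and 0.0775 FPKM. The Gfap values have the same order among the tumors as Aqp4, and the part of retinal glia in them was not tested.

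Of 7 tested neuron markers (8 listed) 2 rose and 0 fell, where 18.7% and 15.4% of all tested loci did. Tubb3 rose by 3.29 (edgeR adjusted p = 0.00915) and Uchl1 by 1.94 (edgeR adjusted p = 0.0326). The summed level of the neuron markers was 65.2 and 60.4 FPKM in wild type and 113, 252 and 71.0 FPKM in the tumors. Nefm and Prph had 0 fragments in tumor 3. Tubb3, Stmn2 and Uchl1 made up most of the tumor sums, and the list was not uniform. Snap25 went from 33.1 and 30.9 to 1.31, 12.0 and 0.312 FPKM. Nefl went from 5.05 and 5.65 to 0.508, 3.18 and 0.291 FPKM, and neither of these passed. Tumor 1 stood apart in skeletal muscle genes, of which 0 of 6 passed, against 34.1% of all tested loci. The summed level of the muscle genes was 6939 FPKM in tumor 1 and 386 to 515 FPKM in the other 4 libraries. Gap43 was highest in that tumor. The part of neurons and of innervated muscle in these values was not tested.

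The loci whose pattern over the 5 libraries was most like that of Cdh19 were Abca8a (Pearson r 0.999), Nudcd3 (0.998) and Ace (0.998), by log2 CPM among 8095 loci with at least 10 FPKM in a group. Abca8a, a lipid transporter gene, was at 11.4 and 11.7 FPKM in the wild-type pair, against 8.97, 14.1 and 1.79 FPKM in tumors 1, 2 and 3. Nudcd3 varied only between 24.4 and 27.9 FPKM, and by FPKM its tumor 2 lay below both wild-type libraries, unlike Cdh19. Those most like Mbp were Chst15 (0.991), Ppfia4 (0.990) and Col10a1 (0.989), among 8094 loci. Col10a1, a collagen gene, was at 2.69 and 3.18 FPKM and at 14.2, 72.9 and 0.410 FPKM. With 5 libraries these correlations are a description only.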

How the data were processed

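RNA was measured in 5 libraries. The tools named, per the submitters' processing notes, are Cuffdiff, Cufflinks 2.2.1 and TopHat2 2.0.9, with build mm10. The sources used here do not give their roles, the annotation or the strand setting, so a gene and its antisense partner cannot be told apart. The deposited table holds estimated counts of fragments per locus, not scaled, and FPKM that the authors scaled between libraries, per the file headers. Locus starts were moved to 1-based positions.

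Estimated counts (96.8% to 97.1% whole) were rounded. Named loci entered edgeR 4.0.16 (R 4.3.3): filterByExpr at a minimum count of 10, TMM, quasi-likelihood F-test of tumor against wild type without covariate, Benjamini-Hochberg adjustment over all 15241 tested loci, threshold 0.05, two-sided. For each SE, the size of the log2 fold change was divided by √F. The fit was checked on simulated data. "Rose" and "fell" of a gene over the groups mean past the threshold. Alternatives were DESeq2 1.42.0, limma-trend (limma 3.58.1) on log2(FPKM + 1) or log2(FPKM + 0.1) of loci at 1 FPKM or more in 2 libraries, no filter, library size alone, each library left out and a replicate block. Unnamed loci (1.52% to 4.37% of fragments) were left out. The table names each library's condition, which gives its group; its replicate numbers start at 0, are printed here from 1, and nothing ties them to the labels' replicate numbers.

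The genes and lists were chosen with earlier results of these data known. Named in the text are the 8 genes, list members past the threshold (at most 8 a list), fixed genes (Sox10, Egr2, Sox2, Erbb3, Jun and S100b; 2 more are not reported here, though they stay in the counts over their list), and the 3 loci most like Cdh19 and Mbp; other genes were named after their values were seen. Ncmap was matched by an older symbol.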

Additional observations from a re-analysis of the deposited data

How the results depend on the processing

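With 2 and 3 libraries a difference has to exceed the spread between tumors to pass, so the 0 calls among the 8 genes do not show that their levels were equal. The count of rises among them went from 0 to 3 at most when 1 library was left out (lowest 0), and was 1 with a replicate block (Mbp at 1.00, edgeR adjusted p = 0.0476); the count of falls was 0 in all 12 alternatives. The labels state no pairing of libraries that share a number. The deviations of same-numbered libraries correlated at 0.01 and 0.03 across loci. These values cannot exclude a pairing, because tumor libraries differed far more from each other than the wild-type pair did. The block gave 3067 calls over all loci against 5201, and 5 rises among other myelin genes.

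Log2 fold changes that turned sign, none past the threshold, were those of Ngfr (−0.22 with limma-trend on log2(FPKM + 1), with or without a filter, −0.59 on log2(FPKM + 0.1), and −1.90 to 1.47 with 1 library left out, lowest without tumor library 2), Cdh19 (0.04 with the block, and −1.44 to 0.12 with 1 library left out, highest without tumor library 3) and Gfap (−0.64 on log2(FPKM + 0.1), and −0.16 to 2.01 with 1 library left out, lowest without tumor library 2). The cause was not tested. Myelinating minus immature in tumor library 1 was −0.05 on log2 CPM, −0.19 with medians and −0.02 to 0.11 with 1 wild-type library left out; in tumor libraries 2 and 3 its sign held in all 5 alternatives, with 1.39 to 3.19 in tumor library 3.

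Other myelin genes had 5 rises and 1 fall with DESeq2, 1 fall in each limma-trend fit, and 0 to 7 rises and 0 to 2 falls with 1 library left out. Other immature genes had 1 fall with library size alone, and 0 to 4 rises and 0 to 3 falls with 1 library left out. Leaving out wild-type library 1 or 2 gave 0 calls over all loci with edgeR, and 4085 and 3996 loci at an unadjusted p under 0.05.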
